A study of Nannochloropsis oceanica with 18 samples.

Results

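The regions described here are stretches of the Nannochloropsis oceanica genome, away from chromosome ends, that carried strong acetylation of histone H3 lysine 27 (H3K27ac) in cells supplied with nitrogen. A region was a member if it was at least 1000 bp and under 12000 bp wide, lay at least 50000 bp from the start of its chromosome and from the last region end of that chromosome, and had a mean ratio of H3K27ac coverage to local background of at least 3.5 over both libraries of nitrogen-replete cells. Of the 3803 regions of the study, 2404 met the conditions on width and place, and 659 of these met all of them. Members were thus selected on their H3K27ac ratios in replete cells, and these ratios, and every comparison of H3K27ac with replete cells, are given as a description with no test.

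The study profiled strain IMET1 of this oil-producing marine microalga by chromatin immunoprecipitation and sequencing (ChIP-seq) with antibodies to H3K27ac, to lysine crotonylation (Kcr) and to dimethylation of histone H3 lysine 36 (H3K36me2). Cells came from nitrogen-replete f/2 medium in the logarithmic phase (C0, 0 days), or from nitrogen-free f/2 medium after 1 day (N1) or 2 days (N2) of nitrogen deprivation (ND). The C0 culture received light at 80 μmol m-2 s-1, whereas N1 and N2 cells had been washed in nitrogen-free medium, moved and kept at 50 μmol m-2 s-1, so that in comparisons with C0 the effects of nitrogen, transfer and light cannot be told apart. Each mark was profiled in 2 labelled libraries per condition, 18 in all. The labels give the same antibody catalogue number for H3K27ac and H3K36me2, which differs from the study's methods.

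Histone acetylation at lysine 27 neutralises a positive charge on the histone tail and is a mark of active promoters and enhancers in animals and plants. Crotonylation is a related acyl mark that draws on crotonyl-CoA, is laid down by some of the enzymes that also acetylate, and likewise accompanies active promoters. Dimethylation of lysine 36 is, in many eukaryotes, placed over the bodies of transcribed genes. No gene was assigned to the regions, which are named by chromosome, start and end as the deposited tables give them. The study's methods name an assembly of the NanDeSyn database for other assays, and for ChIP-seq the reference genome of the species with no version.

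Coverage came in whole steps within a library, and the inverse of the step, taken as a measure of depth except for H3K36me2 in C0, ranged from 1.86 to 7.29 M. Both libraries of Kcr in N2 held identical values, as did both of H3K36me2 in C0, and each such pair was used once. This left 16 distinct libraries. Median coverage and background of H3K36me2 in C0, at 44.5 and 37.7, were on a higher scale than in the other H3K36me2 libraries (22.6 to 26.2, and 20.4 to 24.1), and ratios rather than coverage are therefore reported. Over the members, libraries of 1 group differed by a median of 0.06 to 0.10 on the log2 scale without regard to sign, and their log2 ratios correlated at 0.84 to 0.94 (n = 659 regions, which share the background estimate). Whether such libraries came from separate cultures is not stated by the labels, and p-values measure only the spread between them. Differences between conditions were fitted on the log2 scale with limma, a linear model over all 3803 regions. The ± sign gives its standard error, from 2 libraries per condition or 1 for Kcr in N2 and H3K36me2 in C0, and a call is an adjusted p (Benjamini-Hochberg) under 0.05. Where the scaling moved a count, it is also given for coverage without the background (coverage alone), after subtracting the median difference of all regions (centring), after equalising the libraries' medians, or after equalising medians and spreads.

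The members were found on all 30 chromosomes. They made up 27.4% of the eligible interior regions, 17.3% of all regions and 15.7% of the total width of all regions. Chromosome 2 held 41 of them and chromosomes 27 and 29 held 10 each. As a share of the eligible regions of a chromosome, they ranged from 14.9% on chromosome 16 to 39.2% on chromosome 22.

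Members were wider than the eligible regions below them in acetylation. Their median width was 4882 bp (quartiles 2333.5 to 7587.5 bp), compared with 3933 bp for the 905 eligible regions with a C0 H3K27ac ratio of 2 to 3.5, 1885 bp for the 274 with a ratio of 1 to 2 and 2028 bp for the 566 with a ratio under 1. The widest member, on chromosome 2 (396090 to 408074), spanned 11985 bp and the narrowest, on chromosome 25 (334312 to 335339), spanned 1028 bp.

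Members had a member as a neighbour about as often as regions in general. A member had another member as its neighbour in 221 of 659 cases (33.5%), and 31.5% of all 3803 regions had a member as a neighbour. A single member stood alone 438 times, pairs numbered 70, runs of 3 numbered 23 and runs of 4 numbered 3. Of the runs of 4, on chromosomes 9, 21 and 24, the longest covered 30191 bp on chromosome 9 (444350 to 474540), and a run of 3 on chromosome 1 (1293575 to 1323833) covered 30259 bp. The 4 members on chromosome 9 had H3K27ac ratios between 3.45 and 6.95 in the C0 libraries. The gap to the nearest region had a median of 583 bp for the members and 547 bp for all regions.

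Strong acetylation was found in each C0 library. In C0 the H3K27ac ratio of the members had a median of 4.18 (quartiles 3.79 to 4.85, highest 9.34), and 604 members reached 3.5 in both libraries taken singly. The lowest value in a single library was 3.07, on chromosome 30 (209417 to 214451), a member that passed through the other library at 3.94. The median coverage of the members was 88.5, against 58.0 in the regions with a ratio of 2 to 3.5, and the median background was 20.9 in both sets.

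The threshold cuts a continuous distribution. Just inside it was the member on chromosome 12 (193958 to 197197), with C0 libraries at 3.45 and 3.55, then that on chromosome 15 (412149 to 418084), with 3.47 and 3.54, then the one on chromosome 30 named above. Just outside were an eligible region on chromosome 11 (740524 to 747934), with 3.51 and 3.48, another on chromosome 1 (236138 to 238586), with 3.57 and 3.42, and a wider one on chromosome 7 (430268 to 440552), with 3.55 and 3.43. Moving the threshold to 3 would give 956 members and moving it to 4 would give 397.

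The most acetylated member lay on chromosome 8 (916027 to 924317), where the C0 libraries had H3K27ac ratios of 9.21 and 9.48. The same region had 2.77 and 2.61 in N1, but 2.23 and 2.43 in N2. All 4 ND libraries were far under both C0 libraries, which the choice of the highest C0 value favours. Next came a region of 3258 bp on chromosome 11 (1017219 to 1020476), with 8.91 and 8.85 in C0. Its ND libraries had 5.28 and 5.89 (N1), then 5.21 and 5.42 (N2). All of them were above the ND libraries of the first region. The remaining 8 of the 10 highest members had mean C0 ratios between 7.51 and 8.40 and were on chromosomes 1, 5, 11, 12, 18 and 23.

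**Figure D1:**
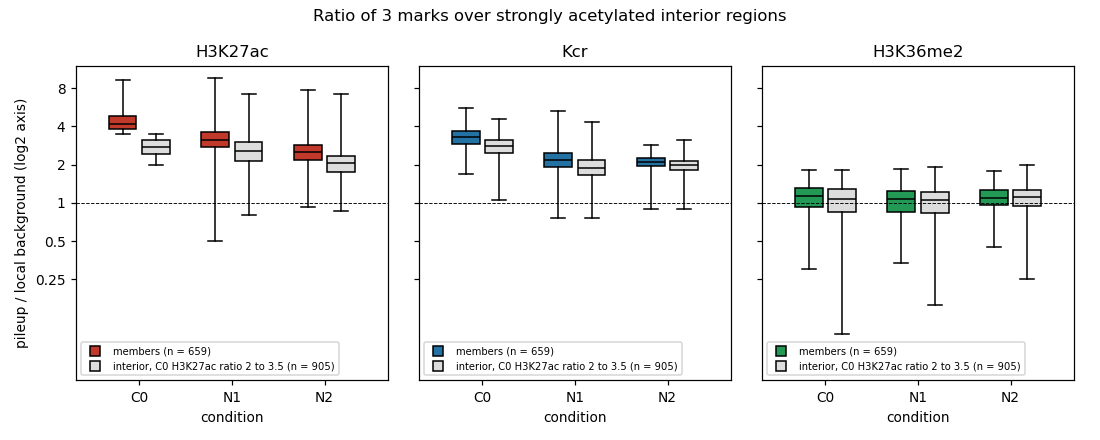
Boxes show the median and quartiles, and whiskers the lowest and highest region, of the ratio of coverage to local background (log2 axis) for the 659 members (coloured) and for the 905 interior regions of the same width with a C0 H3K27ac ratio of 2 to 3.5 (grey), in C0, N1 and N2. H3K27ac medians of the members are 4.18, 3.14 and 2.51, Kcr medians 3.33, 2.19 and 2.10, and H3K36me2 medians stay between 1.08 and 1.13.

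The members carried crotonylation as well. In C0 the median Kcr ratio was 3.33 (quartiles 2.94 to 3.67), 656 of 659 members had a Kcr ratio of at least 2, and 241 reached 3.5. Regions with a C0 H3K27ac ratio of 2 to 3.5 had a median Kcr ratio of 2.79, and all regions had 2.57. Of these 905 regions, 854 (94.4%) had a Kcr ratio of at least 2 and 73 reached 3.5. Of all 3803 regions, 66.1% had at least 2 and 446 reached 3.5. Kcr varied little among the members, with an SD of 0.25 on the log2 scale against 1.15 over all regions. The regions with a C0 H3K27ac ratio of 2 to 3.5 varied about as little, with an SD of 0.28. The H3K27ac and Kcr libraries of a condition have nearly the same local background (log2 backgrounds correlated at 0.99 over the members in C0), which enters both ratios.

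Crotonylation was lower than acetylation at most members. The median log2 difference of Kcr minus H3K27ac was -0.39 in C0, and Kcr exceeded H3K27ac at 48 members. Over all regions that difference was 0.01. Because members were chosen for high H3K27ac in C0, this contrast in C0 is a description. In N1 and N2, which the rule did not use, the medians were -0.52 and -0.25, and Kcr was above H3K27ac at 6 and at 96 members, compared with -0.33 and -0.10 over all regions. Ratios obtained with different antibodies have no common scale, so the sign of these values has no meaning on its own.

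Among the members, the most crotonylated in C0 was a region of 1508 bp on chromosome 3 (851924 to 853431). Its Kcr ratios were 5.78 and 5.41 in C0, 2.81 and 2.99 in N1 and 2.07 in the single distinct library of N2. No library of a condition overlapped with those of another, which the choice of the highest C0 value favours. The fall from C0 was 0.94 ± 0.09 in N1 (limma, adjusted p = 2.59e-10) and 1.42 ± 0.11 in N2 on the log2 scale. The least crotonylated in C0 was the region on chromosome 9 (107001 to 115486), at 1.64 and 1.71, which was one of the exceptions after ND.

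Dimethylation of H3K36 was near the local background. The median H3K36me2 ratio in C0 was 1.13 (quartiles 0.92 to 1.32), and 432 members (65.6%) had a ratio of at least 1. All regions were close to this, with a median of 1.18 and 68.0% at or above 1. A ratio of 1.5 in C0 was reached by 62 of 659 members and by 404 of all 3803 regions. The highest, on chromosome 7 (484023 to 494040), had 1.83, and the lowest, on chromosome 26 (501019 to 502687), had 0.30. The latter carried strong acetylation, with H3K27ac ratios of 6.65 and 6.87 in C0.

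After ND the H3K27ac ratio of the members was lower but mostly stayed at 2 or above. The median H3K27ac ratio was 3.14 in N1, then 2.51 in N2, and 633 and 576 members still had a ratio of at least 2. This was 96.1% and 87.4% of the members. The shares were 81.9% and 55.2% for regions with a C0 ratio of 2 to 3.5, and 57.5% and 45.8% for all regions. Members began at 3.5 or more by the rule, which favours their shares. At or above 3.5 there were 195 members in N1, then 51 in N2, against 521 and 149 of all 3803 regions. The libraries were close to each other, with medians of 4.17 and 4.18 in C0, 3.19 and 3.11 in N1, then 2.49 and 2.48 in N2. A single member was below the background (ratio under 1) in N1 and in N2, the region on chromosome 13 (936659 to 938705). Median H3K27ac coverage of the members was 88.5 before ND, then 85.1 and 64.7. Their median background was 20.9, then 26.7 and 26.0. On the first day the background was thus higher while coverage was little changed.

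The differences in H3K27ac from C0 are fixed in part by the choice of members for high C0 values. The median log2 difference was -0.46 in N1, against -0.13 over all regions, and -0.79 in N2, against -0.31. A difference below 0 was found at 612 members in N1 (62.1% of all regions) and at 648 in N2 (65.3%). Of these, 53 in N1 (3.58% of all regions) and 145 in N2 (6.81%) were lower by at least 2-fold. At 1 member in N1 (1.66% of all regions) and 0 in N2 (6.39%) it was higher by at least 2-fold, with no test on either count. The median moved with the scaling. Coverage alone gave -0.088 for N1 and -0.47 for N2, centring gave -0.33 and -0.47, equal library medians gave -0.29 and -0.34, while equal medians plus equal spreads gave -0.22 and -0.21.

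Members with more acetylation in C0 also had more of it after ND, over a smaller range. Between the 165 members with the lowest and the 165 with the highest C0 ratio, the median H3K27ac ratio went from 3.64 to 5.52 in C0, from 2.97 to 3.38 in N1 and from 2.29 to 2.74 in N2. Across the 659 members, log2 ratios in C0 correlated at 0.21 with those in N1 and at 0.31 with those in N2, whereas N1 and N2 correlated at 0.72. Over all regions these values were 0.93, 0.92 and 0.95. The points share libraries, and the cut at 3.5 narrows the range of C0 values.

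Between the first and the second day of ND, which the rule did not use, H3K27ac fell at most members. By limma, N2 was higher than N1 at 15 members and lower at 444, where 19.6% of the whole table was higher and 41.7% lower. The median log2 difference was -0.33 for the members and -0.14 for all regions. This direction depended on scaling. Centring on the median difference gave 59 higher and 312 lower, equal library medians gave 124 and 177, while equal medians plus equal spreads turned it to 158 and 121. Regions with a C0 ratio of 2 to 3.5 had a median difference of -0.30, with 36 of 905 higher and 537 lower.

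The largest falls between N1 and N2 were of about the same size and occurred in short regions. On chromosome 14 (648952 to 650863) H3K27ac was 2.22 and 1.93 in N1, then 0.98 and 1.06 in N2, a log2 difference of -1.01 ± 0.11 (limma standard error; adjusted p = 1.23e-06). On chromosome 21 (673480 to 674931), where C0 had 3.37 and 3.74, the ratio was 4.25 and 3.81 in N1, then 2.00 and 2.01 in N2 (-0.99 ± 0.09). The region on chromosome 9 (525159 to 526223) had 3.29 and 3.26 in N1 but 1.58 and 1.71 in N2 (-0.98 ± 0.09). In each of these regions both N2 libraries were below both N1 libraries. They differ in their course, since only on chromosome 14 was N1 already well below C0.

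Rises on the second day were called at these 15 members. The largest rise by log2 difference was on chromosome 13 (936659 to 938705), from 0.46 and 0.55 to 0.81 and 1.05 (0.84 ± 0.15), which left both libraries near the background. The ratio itself gained more on chromosome 25 (348131 to 355578), where H3K27ac was 4.97 and 4.83 in C0, 1.90 and 1.97 in N1, then 3.17 and 3.27 in N2 (0.73 ± 0.08, adjusted p = 1.12e-06). Kcr in this region was 2.78 and 2.16 in C0, 1.11 and 1.04 in N1, then 2.08 in N2, with a rise of 0.94 ± 0.16 from N1 to N2. A region of 1911 bp on chromosome 13 (888440 to 890350) went from 4.26 and 3.88 in C0 through 1.56 and 1.87 in N1 to 2.73 and 2.69 in N2 (0.66 ± 0.10). On coverage alone the rise of H3K27ac in this last region was 0.17 and was not called. The 15 members that rose had a median Kcr ratio of 1.54 in N1, then 2.25 in N2. Both marks were divided by like backgrounds (log2 backgrounds correlated at 0.98 over the members in N1), and the part of the background in these values was not tested.

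Crotonylation fell at 90.9% of members after 1 day of ND. By limma, 599 of 659 members were lower in N1 and 9 higher, where 64.1% of all regions were lower and 16.4% higher. The median Kcr ratio went from 3.30 and 3.33 in the C0 libraries to 2.19 and 2.21 in N1, a median log2 difference of -0.59 against -0.43 over all regions. The fall was not particular to the members. Of the 905 interior regions with a C0 H3K27ac ratio of 2 to 3.5, 767 (84.8%) were lower and 22 higher. Their median log2 difference was -0.56. On coverage alone, which leaves out the background that the rule used, 633 members were lower and 5 higher. The count depended on the scale of the libraries. Centring on the median difference of all regions left 289 lower and 64 higher, equal medians plus equal spreads left 178 and 106, whereas equal library medians left 143 and 139. Relative to the shift of all regions, the median log2 difference of the members was -0.16.

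On the second day 606 members had lower Kcr than in C0 and 1 had higher, where 56.1% of all regions were lower and 7.52% higher. The median ratio was 2.10 and the median log2 difference -0.63, against -0.38 over all regions. Interior regions with a C0 H3K27ac ratio of 2 to 3.5 had -0.49. On coverage alone, which leaves out the background that the rule used, the median of the members was -0.39. Centring left 294 lower and 13 higher, equal library medians left 218 and 22, whereas equal medians plus equal spreads left 165 and 78. Lower calls outnumbered higher calls under each of these scalings. Members lower in both N1 and N2 numbered 576 (87.4%), against 52.6% of all regions, and both comparisons share the C0 libraries.

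Called falls of at least 2-fold in Kcr were found at 62 members in N1 (6.57% of all regions) and at 40 in N2 (2.42%). The region with the largest fall in N1 was again that on chromosome 13 (936659 to 938705), where Kcr was 2.30 and 2.57 in C0, 0.83 and 0.70 in N1, then 0.89 in N2. The log2 difference was -1.63 ± 0.15 in N1 (adjusted p = 1.80e-10) and -1.42 ± 0.18 in N2. Next was a region of 5192 bp on chromosome 30 (217870 to 223061), with 3.73 and 4.22 in C0, 1.28 and 1.31 in N1, then 1.68 in N2, and with differences of -1.60 ± 0.10 and -1.23 ± 0.13. H3K27ac there was 6.08 and 6.24 in C0, then 1.67 and 1.56 in N1, then 1.39 and 1.49 in N2. In both regions every ND library of both marks was below every C0 library. Both were picked for the size of their fall in Kcr, so this separation is a description.

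Other members with a large fall in Kcr in N1 rose again in N2. On chromosome 21 (760790 to 763254) Kcr was 3.60 and 3.92 in C0, 1.23 and 1.35 in N1, then 2.16 in N2. The difference from C0 was -1.52 ± 0.10 in N1 and -0.79 ± 0.12 in N2, and the rise from N1 to N2 was 0.73 ± 0.12 (limma, adjusted p = 0.000195). On chromosome 12 (335042 to 341829) Kcr went from 2.70 and 2.98 through 1.07 and 0.99 to 2.10, and this rise of 1.01 ± 0.14 was the largest among the members. H3K27ac of the same region, with 3.85 and 3.74 in C0, was 1.74 and 1.78 in N1, then 1.87 and 2.24 in N2, a difference of 0.21 ± 0.10 between the days (adjusted p = 0.0826).

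As a set, the members had like medians of Kcr on both days of ND. Between N1 and N2, 66 members rose and 91 fell, where 11.4% of all regions rose and 7.47% fell, and the median log2 difference was -0.04 against 0.01. The range narrowed, from an SD of 0.32 on the log2 scale in N1 to 0.19 in N2, the latter being 1 library. On coverage alone this comparison turned to 353 members higher and 2 lower, whereas equal library medians gave 20 and 195, so that no direction can be given for the set. The 66 members that rose had a median Kcr ratio of 1.57 in N1, then 2.15 in N2, and the 91 that fell had 2.75 and 2.01.

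**Figure D2:**
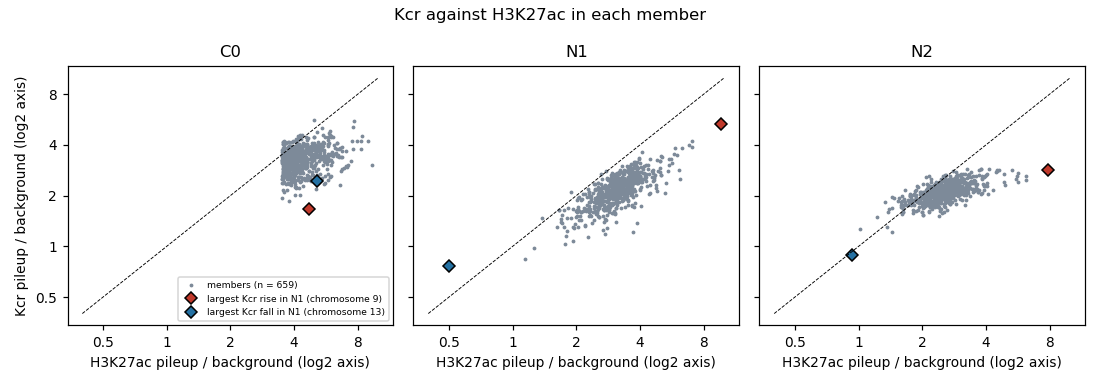
Each grey point is a member (n = 659), placed by its H3K27ac ratio (x axis, log2) and its Kcr ratio (y axis, log2), as means of the distinct libraries in C0, N1 and N2, and the dashed line marks equal ratios. The vertical edge in C0 is the threshold of 3.5, the correlations of log2 ratios are 0.27, 0.76 and 0.66, and the coloured diamonds are the region on chromosome 9 with Kcr at 1.68, 5.34 and 2.83 and the region on chromosome 13 with 2.44, 0.77 and 0.89.

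The relation between both acyl marks within the members had higher correlations after ND than before. Log2 ratios of H3K27ac and Kcr correlated at 0.27 in C0, 0.76 in N1, then 0.66 in N2 (n = 659 regions, which share libraries and a like background). In C0 the threshold on H3K27ac cuts the range, and over all regions the values were 0.95, 0.95 and 0.92. The 165 members lowest in C0 H3K27ac had a median Kcr ratio of 3.15 in C0, 2.09 in N1, then 2.05 in N2, and the 165 highest had 3.52, 2.27 and 2.16.

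Both acyl marks were found throughout at about 1 in 2 members. The ratio was at least 2 for H3K27ac and for Kcr in C0, N1 and N2 at 332 members (50.4%), whereas 22.4% of all regions met this. The condition on H3K27ac in C0 was met by every member through the rule and by 61.5% of all regions. The difference between the shares is thus fixed in part by the choice of members. H3K27ac was at least 3.5 in all conditions at 45 members (6.83%, against 2.47% of all regions), with C0 again set by the rule. Their median Kcr ratio was 3.16 in C0, 2.80 in N1, then 2.42 in N2. At the other end, 19 members (2.88%, against 41.3% of all regions) had H3K27ac under 2 in both N1 and N2. Kcr was under 2 in both at 121 members (18.4%, against 53.5% of all regions). In C0 a Kcr ratio of at least 2 was found at 99.5% of members and 66.1% of all regions. Many regions were thus low in either mark before ND, and these contrasts too are fixed in part by the choice of members. The 19 members had a median H3K27ac ratio of 4.22 in C0, close to that of all members, and a median Kcr ratio of 3.03 in C0, 1.37 in N1, then 1.82 in N2.

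Single members were far lower in acetylation after ND. On chromosome 13 (936659 to 938705) H3K27ac was 5.09 and 5.14 in C0, as against 0.46 and 0.55 in N1, with 0.81 and 1.05 in N2. The log2 difference from C0 was -3.28 in N1 and -2.44 in N2. The H3K36me2 ratio of this region was low throughout, at 0.63 in C0, 0.57 and 0.40 in N1, then 0.62 and 0.74 in N2. No library of any mark was thus above the background there in N1.

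A longer region on chromosome 24 (592986 to 597825) had H3K27ac ratios of 6.56 and 6.57 in C0, 1.19 and 1.10 in N1, then 1.39 and 1.51 in N2. Its Kcr was 2.28 and 2.31 in C0, 0.83 and 0.87 in N1, then 1.21 in N2, with a fall of 1.42 ± 0.14 in N1 on the log2 scale. On chromosome 3 (571577 to 577466) H3K27ac was 7.51 and 7.37 in C0, 1.88 and 1.63 in N1, then 1.54 and 1.64 in N2, with Kcr at 2.96 and 3.43, at 1.41 and 1.20, and at 1.76. The ND libraries of these regions did not overlap with C0 for either acyl mark. The regions were picked for the size of their fall in H3K27ac, so this separation is a description.

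A few members went the other way. The region of 8486 bp on chromosome 9 (107001 to 115486) had H3K27ac ratios of 4.65 and 4.74 in C0, 9.46 and 9.87 in N1, then 7.45 and 8.15 in N2. Its N1 mean of 9.66 was the highest of all members. Its Kcr was 1.64 and 1.71 in C0, 5.21 and 5.48 in N1, then 2.83 in N2. The rise in Kcr was 1.65 ± 0.09 in N1 (limma, adjusted p = 1.09e-14) and 0.75 ± 0.11 in N2 (adjusted p = 1.10e-06), and it was the only member called higher for Kcr in N2. From N1 to N2, H3K27ac fell by 0.30 ± 0.06 and Kcr by 0.90 ± 0.11 on the log2 scale, the latter not called on coverage alone (-0.18). H3K36me2 was 1.17 in C0, 1.01 and 1.10 in N1, then 2.13 and 1.45 in N2, a rise of 0.58 ± 0.13 over C0. By ratio, acetylation and crotonylation were thus highest on the first day, and H3K36me2 on the second.

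The other 8 members with a rise in Kcr in N1 gained less, and none was called higher in N2. On chromosome 26 (80819 to 83428) Kcr was 2.10 and 2.65 in C0, 3.84 and 3.76 in N1, then 2.16 in N2, with a difference of 0.68 ± 0.10 in N1 and -0.13 ± 0.12 in N2, and the rise was not called on coverage alone (0.13). On chromosome 9 (902745 to 912209) it was 2.55 and 2.84, then 3.89 and 4.52, then 2.42 (0.64 ± 0.09 and -0.15 ± 0.11). On chromosome 11 (1065749 to 1075632) it was 2.48 and 2.63, then 3.68 and 4.01, then 2.49 (0.58 ± 0.09 and -0.04 ± 0.11). In each of these regions both N1 libraries stood above those of C0 and N2, and the difference of N2 from C0 did not pass the test. All 9 members had a Kcr ratio in C0 below 3 (1.68 to 2.97), whereas 468 of 659 members and 1192 of 3803 regions had at least 3. A choice for N1 above these C0 libraries favours low C0 values, so this is a description. The 9 members had a median H3K27ac ratio of 4.70 in C0, 6.12 in N1, then 4.61 in N2. None was narrower than 2610 bp, and 148 of the 659 members were under 2000 bp.

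Acetylation was higher after ND at members where no change in Kcr was called. On chromosome 5 (1372745 to 1378620) H3K27ac was 3.43 and 3.60 in C0, 6.03 and 6.29 in N1, then 5.50 and 5.60 in N2. Kcr of the same region was 2.38 and 2.61, then 2.53 and 2.50, then 2.51, and its difference from C0 was 0.01 ± 0.09 in N1 and 0.01 ± 0.11 in N2. On chromosome 24 (612025 to 619050) H3K27ac was 3.47 and 3.91 in C0, 4.74 and 4.43 in N1, then 6.27 and 6.09 in N2, and rose by 0.43 ± 0.07 between N1 and N2 (limma, adjusted p = 7.39e-05). Kcr there was 2.50 and 2.70 in C0, then 2.86 and 2.82 in N1, then 2.60 in N2 (0.13 ± 0.09 for N1, adjusted p = 0.199). For both regions every ND library of H3K27ac lay above those of C0, while the Kcr values of N2 lay between those of the C0 libraries. The difference between the marks was not tested.

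**Figure D3:**
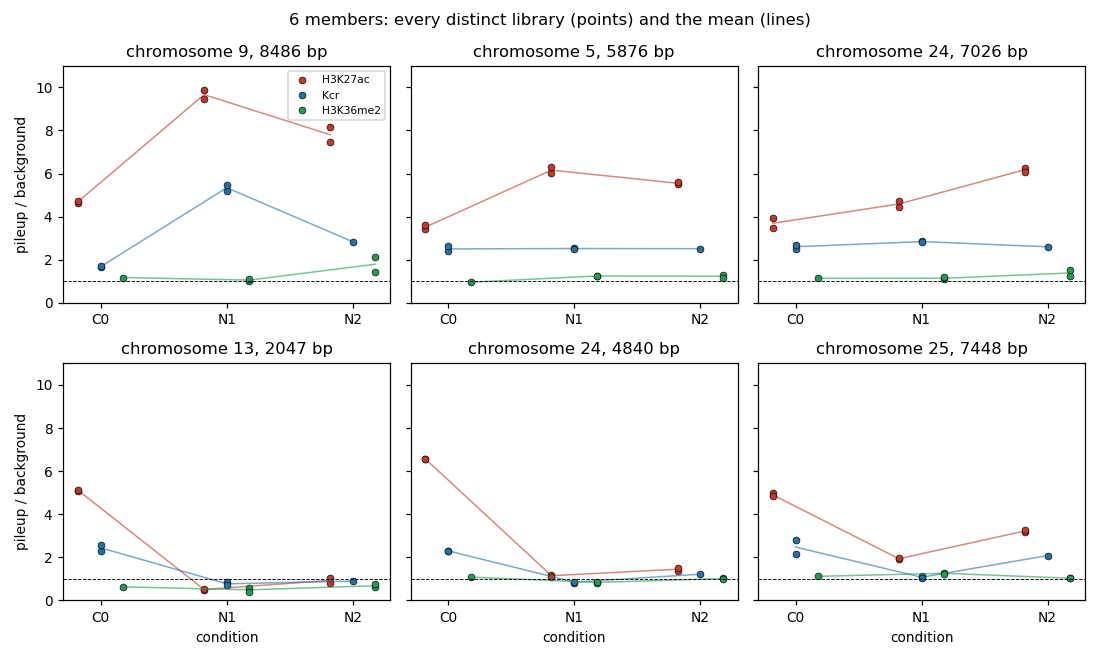
Ratio of coverage to local background (y axis) in C0, N1 and N2 (x axis) for 6 members named by chromosome and width. Points are single distinct libraries and lines join the means. On chromosome 9 H3K27ac (red) runs from 4.70 over 9.66 to 7.80 and Kcr (blue) from 1.68 over 5.34 to 2.83. On chromosome 13 both are near or under 1 (dashed line) after C0, and on chromosome 25 both are lowest in N1.

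H3K36me2 varied little in the set as a whole. Its median ratio was 1.13 in C0, 1.08 in N1, then 1.10 in N2, and 432, 398 and 456 members had a ratio of at least 1. These counts were 65.6%, 60.4% and 69.2% of the members, against 68.0%, 64.9% and 69.6% of all regions. At least 1 in all conditions was found at 325 members (49.3%, against 54.5% of all regions), and under 1 in all conditions at 139 (21.1%, against 21.5%). For interior regions with little acetylation, the median H3K36me2 ratio in C0 was 1.37 (C0 H3K27ac ratio under 1, n = 566).

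Against C0, 29 members were higher and 102 lower for H3K36me2 in N1, where 7.23% of all regions were higher and 15.1% lower. Centred on the median difference this became 43 and 51. Similarly, equal library medians gave 41 and 50, while equal medians plus equal spreads gave 18 and 22. The median difference over all regions was -0.07. Without N1 replicate 1 the calls were 14 and 50, and without N1 replicate 2 they were 11 and 56. For N2 the counts were 97 higher and 97 lower, beside 16.3% and 19.4% of the whole table. Equal library medians made this 136 and 56, while equal medians plus equal spreads made it 99 and 36. Among the 428 members above the median coverage it was 49 and 103. On coverage alone 0 members were higher and 657 lower in N1, then 2 and 571 in N2, which holds the higher scale of the C0 library noted above.

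From the first to the second day of ND, H3K36me2 rose at 196 members and fell at 67, where 27.1% of all regions rose and 17.2% fell. The median log2 difference was 0.10 against 0.05 over all regions. Centring gave 158 and 100, coverage alone 399 and 3, and the 428 members above the median coverage 89 and 65. Without N1 replicate 1 it was 120 and 41, and without N1 replicate 2 it was 126 and 38. Higher calls outnumbered lower calls in each of these settings. Regions with a C0 H3K27ac ratio of 2 to 3.5 had 298 of 905 higher and 94 lower.

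**Figure D4:**
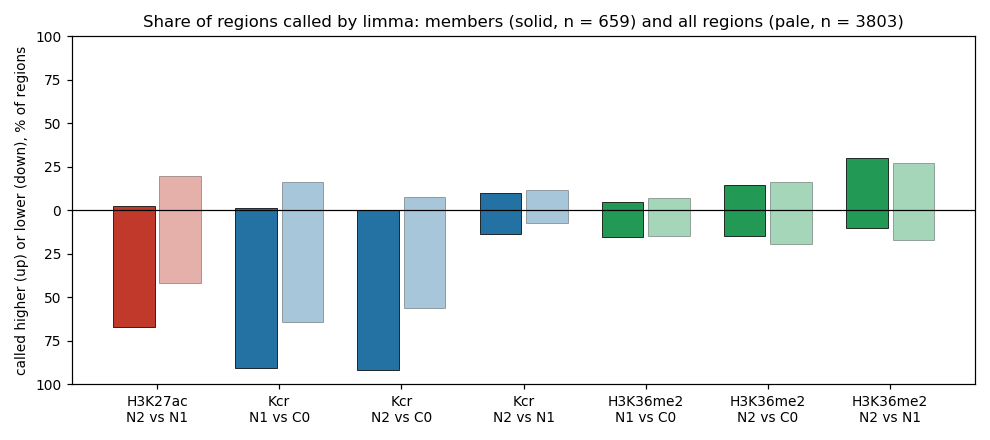
Bars show the percent of regions called higher (upwards) or lower (downwards) by limma at a Benjamini-Hochberg adjusted p under 0.05, for the 659 members (solid) and all 3803 regions (pale). Comparisons of H3K27ac with C0 are left out because the C0 values chose the members. Kcr was lower at 90.9% of members in N1 and 92.0% in N2, against 64.1% and 56.1% of all regions, and H3K36me2 was higher in N2 than in N1 at 29.7% and lower at 10.2%, against 27.1% and 17.2%.

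The H3K36me2 ratio of a member went with its width. Members under 2000 bp (n = 148) had a median H3K36me2 ratio of 0.84 in C0, 0.73 in N1, then 0.93 in N2. For widths from 2000 bp (n = 125) these were 1.09, 1.00 and 1.06, from 4000 bp (n = 238) 1.23, 1.16 and 1.17, and from 8000 bp (n = 148) 1.26, 1.20 and 1.21. A ratio of at least 1 in C0 was found at 25 of the 148 shortest members and at 134 of the 148 widest. Across the members, width and the log2 H3K36me2 ratio correlated at 0.61 in C0, 0.67 in N1, then 0.49 in N2. For H3K27ac these were 0.07, 0.21 and 0.17. Regions with a C0 H3K27ac ratio of 2 to 3.5 had the same order by width, from 0.79 to 1.25 in C0.

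The rise of H3K36me2 on the second day was larger in short members. The median log2 difference between N1 and N2 was 0.35 for members under 2000 bp, 0.17 from 2000 bp, -0.00 from 4000 bp and -0.01 from 8000 bp. Of the 196 members that rose, 91 were under 2000 bp and the median width was 2228.5 bp, whereas the 67 that fell had a median width of 6290 bp and included 1 member under 2000 bp. Short members had the lowest ratios in N1 and moved towards a ratio of 1. Interior regions of the same width with a C0 H3K27ac ratio of 2 to 3.5 had medians of 0.31, 0.14, 0.01 and -0.00 in the same classes.

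**Figure D5:**
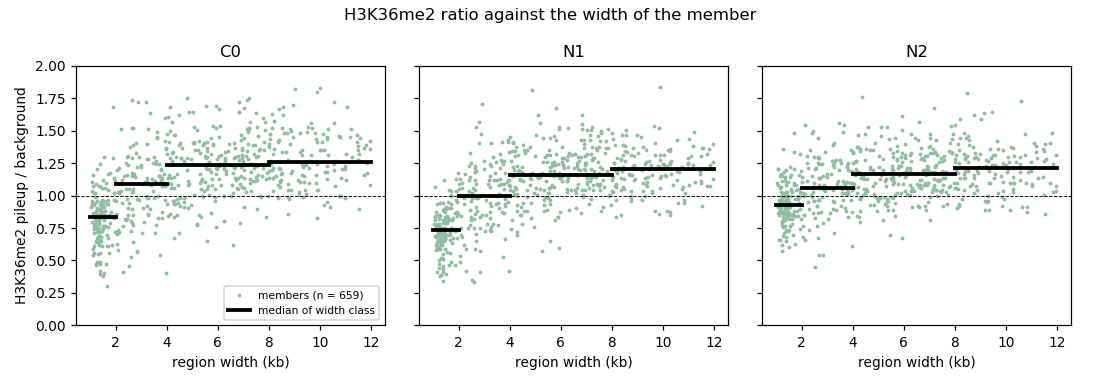
H3K36me2 ratio (y axis) of each member against its width in kb (x axis) in C0, N1 and N2, with horizontal bars for the medians of 4 width classes. Members under 2 kb have medians of 0.84, 0.73 and 0.93, mostly under the dashed line at 1, and members from 8 kb have 1.26, 1.20 and 1.21.

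The largest rises in H3K36me2 were in regions of 1374 to 2588 bp. The region on chromosome 29 (216236 to 218823) had 0.52 in C0, 0.30 and 0.37 in N1, then 0.90 and 0.94 in N2. By limma it fell in N1 (-0.59 ± 0.18, adjusted p = 0.0123), and the rise between N1 and N2 was 1.39 ± 0.15 (adjusted p = 5.65e-11). That on chromosome 30 (386234 to 387607) had 0.42 in C0, 0.37 and 0.45 in N1, then 0.85 and 1.02 in N2, a rise of 1.15 ± 0.15 on the second day. The N2 libraries of both regions were above all libraries of C0 and N1, with values of 0.85 to 1.02. The least dimethylated member in C0, on chromosome 26 (501019 to 502687), went from 0.30 to 0.52 and 0.60 in N1 and to 0.64 and 0.75 in N2. Its rise of 0.88 ± 0.18 in N1 was not seen on coverage alone (-0.14), which carries the scale of C0.

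The largest fall in H3K36me2 from C0 to N2 was in a wider member. This region on chromosome 1 (1260653 to 1267465) had 1.65 in C0, 1.58 and 1.44 in N1, then 0.93 and 0.92 in N2, a difference of -0.82 ± 0.12 from C0 (limma, adjusted p = 1.47e-07). Acetylation of this region was lower as well, with H3K27ac at 6.45 and 6.60 in C0, 3.12 and 2.59 in N1, then 1.95 and 1.84 in N2. On chromosome 3 (1272668 to 1279484) H3K36me2 was 1.72 in C0, 1.62 and 1.62 in N1, then 1.06 and 1.13 in N2 (-0.64 ± 0.11). In both regions N1 did not pass the test against C0 (-0.13 ± 0.12 and -0.09 ± 0.11), and both N2 libraries were below every other library. A fall already present on the first day was on chromosome 10 (651480 to 654686), with 1.39 in C0, 0.75 and 0.71 in N1, then 0.91 and 1.01 in N2 (-0.91 ± 0.14 in N1).

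H3K36me2 also rose at members that kept high acetylation. On chromosome 28 (75365 to 79002) its ratio was 0.83 in C0, 1.23 and 1.33 in N1, then 1.51 and 1.59 in N2, with rises of 0.61 ± 0.12 and 0.88 ± 0.12 over C0, the first being -0.32 on coverage alone. H3K27ac of the region was 5.58 and 5.49 in C0, 3.57 and 3.66 in N1, then 4.08 and 3.61 in N2, and Kcr was 3.65 and 3.15, then 2.57 and 2.50, then 2.55. On chromosome 2 (132155 to 142761) H3K36me2 was 1.07 in C0, 0.93 and 0.94 in N1, then 1.85 and 1.61 in N2, and rose by 0.86 ± 0.10 between N1 and N2 (limma, adjusted p = 1.65e-10). H3K27ac of that region was above C0 in every ND library, at 3.54 and 3.87 in C0, 5.55 and 5.31 in N1, then 5.10 and 4.68 in N2.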

How the data were processed

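Coverage of H3K27ac, Kcr and H3K36me2 was analysed in 18 labelled libraries of 9 groups. Per the study's methods and the submitters' notes, reads were trimmed with Trim Galore, aligned with BWA, processed with Picard and deepTools, with peaks from MACS2 relative to input; versions were not stated in the sources at hand. The authors deposited, for each merged region and library, a coverage signal (pileup) and a local background (lambda). All 9 tables held the same regions and values. Pileups were whole multiples of 1 step per library for 100% of regions (tolerance 0.05 of a step), and depth is the inverse of that step. Among the distinct libraries this inverse matched the valid pairs listed by the study, except for H3K36me2 in C0. There it was 2.63 M, below the valid pairs listed for either library, so that it is no measure of depth. The statistic of coverage behind a value was not stated in the sources at hand, and no count test was run. The authors' scores, fold changes and p-values were not used, nor were 36 columns of 12 libraries with no label here.

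A ratio is the mean of pileup over lambda of the distinct libraries. Log2(pileup + 0.5) minus log2(lambda + 0.5) was fitted per mark over all 3803 regions with limma 3.58.1 (trend, R 4.3.3) in 1 fit for C0, N1 and N2, with 3 residual degrees of freedom for H3K27ac and 2 for the other marks, with calls at an adjusted p (Benjamini-Hochberg, over all regions) under 0.05. For H3K27ac against C0, which the choice of members used, no calls are given. The fit was tested on simulated data. Pairs with identical values (H3K36me2 C0 and Kcr N2) entered once, and borrowed their spread from the remaining groups. The other pairs differed by less than counts of that size would (chi-square per degree of freedom 0.666 to 0.774), so that p-values compare libraries and each group was counted as 1 sample.

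The members and lists were chosen with earlier results of these data known. Regions were named by rule: the 10 highest in C0 H3K27ac, the 4 largest called rises and falls per mark and comparison (for H3K27ac against C0 by size only), the 4 lowest and highest in C0 for Kcr and H3K36me2, the 3 on each side of the threshold, the widest, the narrowest and the longest run by number of members, then by span, of which the text gives those it discusses. Members grouped by a shared call or level were chosen after the values were seen. Alternatives were pileup alone, a pseudocount of 2, centring on the median difference, equal library medians, equal medians and spreads, regions above the median pileup, a replicate block, leaving out single libraries, a fold of at least 2, and membership thresholds of 3 and 4.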

Additional observations from a re-analysis of the deposited data

Results flagged for a closer look

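At 3 members picked here as examples, H3K36me2 was lower than C0 in N1 and higher in N2 in every library. Their difference between N2 and N1 passed the limma test. On chromosome 29 (216236 to 218823) the log2 difference from C0 was -0.59 in N1 and 0.80 in N2, and N2 minus N1 was 1.39 (Benjamini-Hochberg adjusted p = 5.65e-11). On chromosome 3 (179836 to 181144) these values were -0.47, 0.57 and 1.04 (adjusted p = 4.08e-08), with ratios of 0.55 in C0, 0.41 and 0.37 in N1 and 0.85 and 0.80 in N2. On chromosome 17 (771117 to 772804) they were -0.32, 0.33 and 0.65 (adjusted p = 2.38e-07), with 1.17 in C0, 1.00 and 0.87 in N1 and 1.45 and 1.51 in N2. Each rests on 1 distinct C0 library, whose own spread was not measured. This course was not limited to the 3 members. The member on chromosome 14 (946968 to 948242) had ratios of 0.65 in C0, 0.40 and 0.37 in N1, then 0.78 and 0.73 in N2. Of the 196 members called higher in N2 than in N1, 162 had a log2 difference from C0 below 0 in N1. In N2, 160 of them had one above 0. Among all 659 members these counts were 446 and 316, and among all 3803 regions 2304 and 1837. A choice for N2 above N1 favours both signs, so the counts are a description. Members with both signs together were not counted. The share of all regions with this course was not counted.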

How the results depend on the processing

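For H3K27ac against C0 the median log2 differences of the members, a description since the rule used C0, were -0.46 in N1 and -0.79 in N2. They became -0.088 and -0.47 on pileup alone, -0.33 and -0.47 after centring, -0.29 and -0.34 after equalising library medians, -0.22 and -0.21 after equalising spreads too, -0.37 and -0.70 at a membership threshold of 3, and -0.55 and -0.86 at 4. In N2 a pseudocount of 2 gave -0.76 and the 638 members above the median pileup -0.77. Without 1 library the medians were -0.48 to -0.42 in N1 and -0.79 to -0.77 in N2. A fold of at least 2 gives no median, and its counts stand with the result.

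The other values are the percent of the 659 members called. For H3K27ac, 69.7% between N1 and N2 became 45.7% after equalising library medians and 42.3% after equalising spreads too, where the direction turned. For Kcr against C0, 92.3% in N1 became 53.6%, 42.8% and 43.1%, and 92.1% in N2 became 46.6%, 36.4% and 36.9%, after centring, after equalising library medians and after equalising spreads too. Kcr between N1 and N2, 23.8%, turned in direction on pileup alone (53.9%). For H3K36me2, 19.9% in N1 became 99.7% on pileup alone and 6.07% after equalising medians and spreads, 29.4% in N2 became 87.0% on pileup alone, and 39.9% between N1 and N2 became 61.0%. At a fold of at least 2 the shares were 9.56%, 6.07% and 0.152% (1 member, which rose) for Kcr, and 0%, 0.303% and 0.759% for H3K36me2, in N1 and N2 against C0 and between the days, and 0.152% for H3K27ac between the days.

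Without 1 library the shares were 61.5 to 66.2% for H3K27ac between the days, 88.2 to 92.3%, 89.4 to 92.3% and 17.1 to 25.8% for Kcr, and 9.71 to 20.3%, 22.5 to 26.6% and 24.4 to 39.5% for H3K36me2. Replicate numbers did not pair the libraries (correlations of deviations -0.02 to 0.03). With the replicate number as a block, 69.3% of members were called for H3K27ac between N1 and N2, 92.6% and 90.9% for Kcr in N1 and N2 against C0, and 15.6% for H3K36me2 in N1, and no named call changed.

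Of 803 values for named regions, 717 kept their call or their size, 71 values without a test moved, and 10 calls were lost, all on pileup alone. On pileup alone 5 rises of H3K36me2 over C0 became negative: -0.14 on chromosome 26 (501019 to 502687), -0.32 on chromosome 28 (75365 to 79002), -0.53 and -0.64 on chromosome 13 (987105 to 988796 and 69113 to 75693) in N1, and -0.0101 on chromosome 9 (60969 to 62492) in N2. Pileup alone carries the higher scale of H3K36me2 in C0. The causes of the other changes were not tested. The number of fragments in a region is not known, so that no counting interval can be given.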
